A study of Mus musculus with 5 samples.

Results

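Cholesterol and fatty acid synthesis genes were examined as a set of 30, taken by name from the 32793 genes of the deposited tables. They are 8 genes of the mevalonate arm, 10 enzymes that turn squalene into cholesterol, 8 regulators or sterol handling genes and 4 fatty acid synthesis genes. All 30 were present and all 30 passed the filter on low counts. Total RNA of whole kidneys, dissected from mouse embryos of embryonic day 15.5, was sequenced in bulk. The NICD_mut kidneys (2 libraries) had the genotype Six2TGC/+, RosaN1ICD∆PEST: the Six2 driver makes Cre recombinase in nephron progenitors, and Cre switches on an activated Notch1 that lacks its PEST domain. NICD_wt kidneys (3 libraries) carried the RosaN1ICD∆PEST allele without Cre and came from littermates. Every NICD_mut library therefore also carried the Cre driver, and what the driver does and what activated Notch1 does cannot be told apart. The labels do not say whether animals were pooled or whether each library came from its own animal, so the p-values describe only how far these libraries spread, which may be technical.

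Cholesterol is built from acetyl-CoA through mevalonate, farnesyl diphosphate and squalene, and fatty acids are built from the same precursor through malonyl-CoA. Transcription of both pathways is driven by the sterol regulatory element binding proteins (SREBPs), membrane-bound factors that the escort protein SCAP carries from the endoplasmic reticulum to the Golgi for cleavage. When sterols are plentiful, INSIG proteins hold SCAP and SREBP back, and oxysterols activate the nuclear receptors LXR, which switch on cholesterol efflux genes. The developing kidney grows by rapid cell division and tubule formation, both of which need new membrane.

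Libraries held 17361823 to 21356447 counts. Notch1, whose count sums endogenous and transgene reads, had 287.6 and 324.1 CPM (counts scaled to library size) in NICD_mut, against 127.3, 141.6 and 120.2 CPM in NICD_wt. Each of 5 kidney epithelium markers had counts in every library, at a summed level of 570.3 and 642.2 TPM (a transcript level scaled for gene length and library size) in NICD_mut against 576.5 to 649.7 TPM in NICD_wt. NICD_mut 1 stood apart by skeletal muscle transcripts: 8 muscle markers summed to 3755 TPM in it and 24.9 TPM in NICD_mut 2, against 157 TPM in NICD_wt 1 and at most 8.96 TPM in NICD_wt 2 and 3.

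Most of the set was lower in NICD_mut kidneys. Tests were edgeR quasi-likelihood fits with p-values adjusted by Benjamini-Hochberg (BH) over all 15885 tested genes. At an adjusted p under 0.05, 18 of the 30 genes fell, 2 rose and 10 did not pass. Over all tested genes 24.8% fell, 23% rose and 47.7% changed in either direction. The median log2 fold change (NICD_mut over NICD_wt) of the 30 genes was -0.28, against 0.01 over all tested genes, and single genes ran from -1.13 to 0.64. The groups did not overlap in CPM for 24 of the 30, 22 of them lower in NICD_mut, against 67.2% of all tested genes, 34.2% lower. Leaving out NICD_mut 1 and NICD_wt 1, the libraries with muscle transcripts, gave 19 that fell and 2 that rose. Over all tested genes 22.3% fell in that fit. The number that fell was 18 without NICD_mut 1, 15 without NICD_mut 2 and 19 without NICD_wt 1, where 23.1%, 25.5% and 20.3% of all tested genes fell. It was 13 without NICD_wt 2 and 13 without NICD_wt 3, where 21.7% and 19.6% of all tested genes fell. In whole kidneys, fewer cells that express a gene and less of its RNA per cell cannot be told apart.

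The deposited TPM values gave a smaller count on the same libraries. By limma on log2(TPM + 1), 9 of the 30 fell and 2 rose, where 18.7% of all tested genes fell, 28.9% rose and 47.6% changed in either direction. Of all genes called, 60.7% were higher in NICD_mut on TPM and 48.1% on counts. On that scale the median of all genes stood at 0.106 and that of the 30 genes at -0.15, a distance of -0.255, against -0.294 on counts. The 9 that fell by TPM were Idi1, Fdps, Acat2, Mvd, Sqle, Msmo1, Tm7sf2, Cyp51 and Insig1, and the 2 that rose were Mylip and Insig2. These 11 genes kept their call in each of 16 alternative settings.

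**Figure D1:**
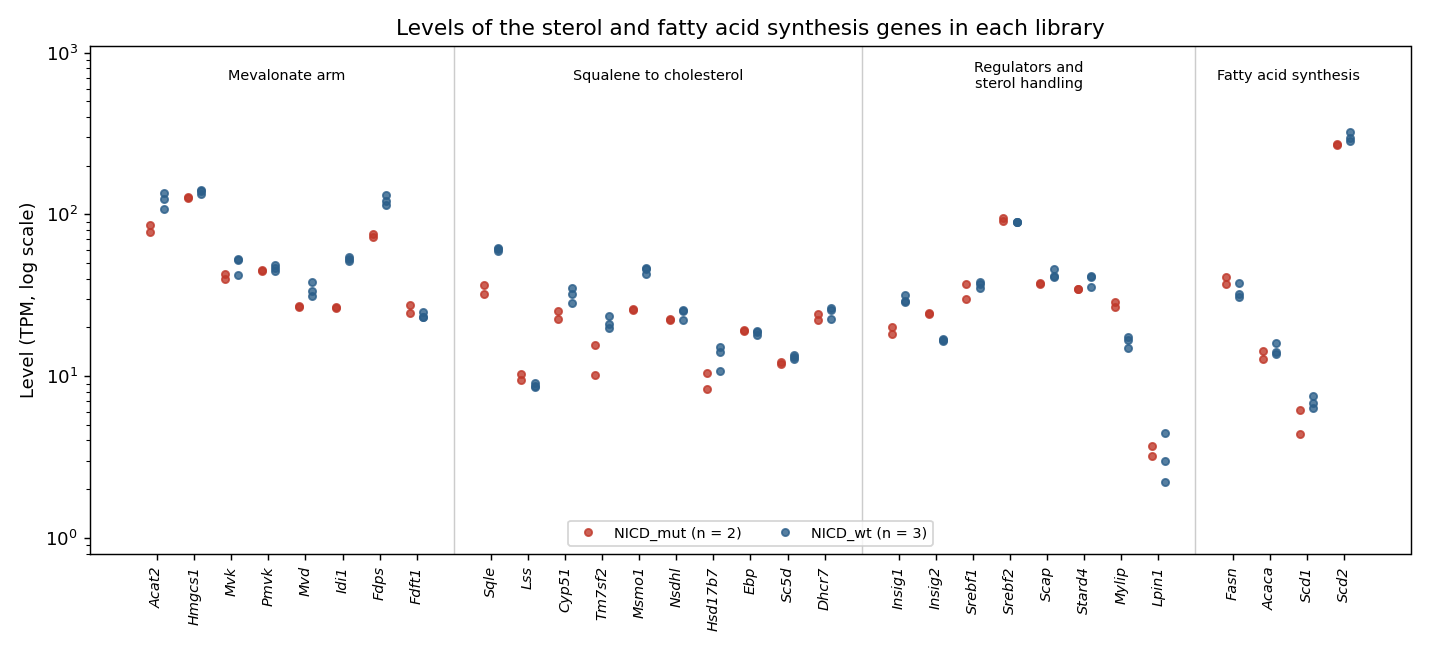
Level of each gene in each library in TPM on a log axis, with NICD_mut libraries (n = 2) left of NICD_wt libraries (n = 3) for each gene. Scd2 has the highest level and Lpin1 the lowest in both groups, and Idi1, Fdps, Sqle and Msmo1 show the gap between groups described in the text.

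In the mevalonate arm 6 of 8 genes fell and 2 did not pass, against 24.8% of all tested genes that fell. The median log2 fold change of the arm was -0.43. Idi1 makes the interchangeable isoprenoid building blocks as isopentenyl diphosphate isomerase. It had 40.4 and 41.7 CPM in NICD_mut against 89.4, 87.4 and 92.1 CPM in NICD_wt. NICD_mut was at 45.8% of the NICD_wt mean, a log2 fold change of -1.13 (SE 0.07; edgeR, BH-adjusted p = 4.77e-06). Fdps, farnesyl diphosphate synthase, supplies both sterols and protein prenylation. It had 44.5 and 43.3 CPM in NICD_mut against 74.6, 76.6 and 86.2 CPM in NICD_wt (log2 fold change -0.85, SE 0.08; edgeR, BH-adjusted p = 5.91e-05). In both genes the libraries of each group lay close together and the groups were well apart. The mm10 annotation holds near copies of both (5 of Fdps and 2 of Idi1) that were not analysed here, so their counts are uncertain as single genes.

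Acat2, the cytosolic thiolase that opens the pathway, had 82.5 and 95.2 CPM in NICD_mut against 147, 126 and 160 CPM in NICD_wt. Its log2 fold change was -0.70 (SE 0.11; edgeR, BH-adjusted p = 0.00183). Its neighbour Acat3 matches the Acat2 transcript at 97.7% over 1477 bases, and it moved the opposite way. Acat3 had 294 and 328 counts in NICD_mut against 38, 23 and 37 counts in NICD_wt. With the counts of both genes summed, a choice made after seeing the data, the log2 fold change was -0.49 (SE 0.11; edgeR, BH-adjusted p = 0.0101). Acat2 lies on chromosome 17 (mm10, 12942890 to 12960747, minus strand) and Acat3 beside it (12923813 to 12940600, minus strand).

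The other kinases and synthases of the arm moved less. Mvd, mevalonate diphosphate decarboxylase, had 23.5 and 24.9 CPM in NICD_mut against 30.7, 37.1 and 32.9 CPM in NICD_wt (log2 fold change -0.47, SE 0.11). Hmgcs1, which makes HMG-CoA, had 242 and 251 CPM in NICD_mut against 283 to 299 CPM in NICD_wt (log2 fold change -0.25, SE 0.06). Mvk, mevalonate kinase, changed by -0.38 (SE 0.10) on the log2 scale, and did not pass without NICD_wt 2 or without NICD_wt 3 (edgeR, BH-adjusted p = 0.0595 and 0.0657). Pmvk, phosphomevalonate kinase, did not pass at -0.17 (SE 0.09), with a 95% interval of -0.38 to 0.04. Fdft1, squalene synthase, the first enzyme committed to sterols, had 49.1 and 57.7 CPM in NICD_mut against 51.5, 51.8 and 55.4 CPM in NICD_wt. Its log2 fold change was 0.01, with a 95% interval of -0.18 to 0.21. Fdft1 shares 774 exon bases with Ctsb, a protease gene on the opposite strand that rose by 0.83 (SE 0.06) on the log2 scale, and without a strand setting their reads cannot be told apart. The near copy Gm6781, not analysed here, also matches the Fdft1 transcript at 97.4% over 1249 bases.

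**Figure D2:**
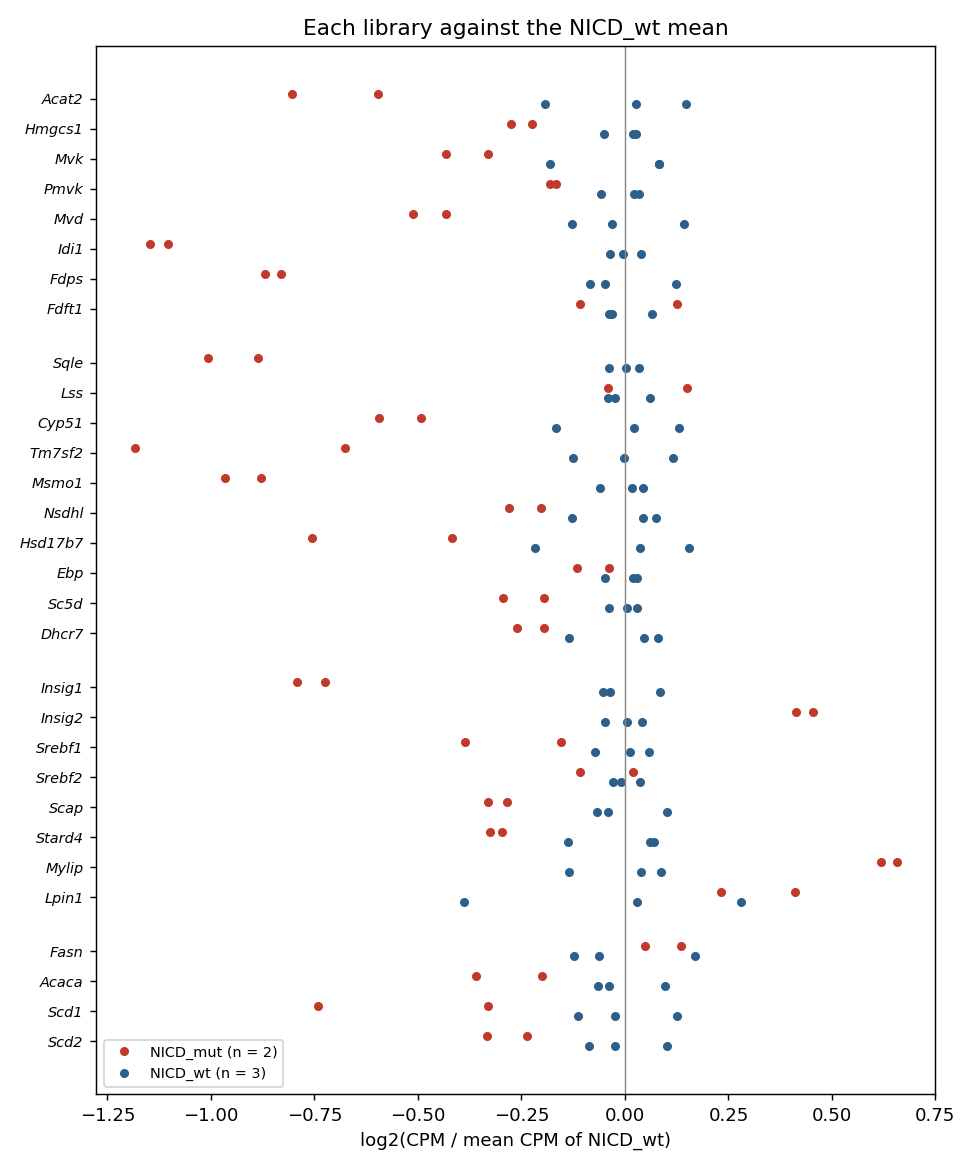
log2 ratio of each library's CPM to the NICD_wt mean for each gene, with NICD_mut above NICD_wt. Both NICD_mut points lie left of all NICD_wt points in 22 of 30 genes and right of them for Insig2 and Mylip.

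Among the 10 enzymes from squalene to cholesterol 5 fell and 5 did not pass, against 24.8% of all tested genes that fell. The median log2 fold change of these enzymes was -0.39. Sqle, squalene epoxidase, a rate-limiting step, had 53.0 and 48.7 CPM in NICD_mut against 98.0, 95.3 and 100.2 CPM in NICD_wt. The log2 fold change was -0.95 (SE 0.07; edgeR, BH-adjusted p = 1.28e-05). Msmo1, the sterol methyl oxidase, had 23.4 and 24.9 CPM in NICD_mut against 43.9, 46.3 and 47.2 CPM in NICD_wt (log2 fold change -0.92, SE 0.09; edgeR, BH-adjusted p = 5.33e-05). NICD_mut was at 51.9% of the NICD_wt mean for Sqle and at 52.8% for Msmo1. Tm7sf2, a sterol reductase, had 10.3 and 7.25 CPM in NICD_mut against 15.1, 17.9 and 16.5 CPM in NICD_wt (log2 fold change -0.91, SE 0.18). Tm7sf2 shares 532 exon bases with Vps51 on the same strand, whose log2 fold change of 0.13 did not pass. Cyp51, lanosterol demethylase, changed by -0.54 (SE 0.09) and Hsd17b7, a sterol ketoreductase, by -0.58 (SE 0.14).

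The steps between and after these enzymes showed smaller differences. Lss, which closes squalene epoxide into lanosterol, had 33.6 and 38.3 CPM in NICD_mut against 34.0, 36.0 and 33.5 CPM in NICD_wt, so the groups overlapped. Its log2 fold change was 0.06, with a 95% interval of -0.15 to 0.27. Ebp, a sterol isomerase, was at -0.08 with an interval of -0.34 to 0.18, and at 0.04 on TPM. Nsdhl, Sc5d and Dhcr7, the demethylation, desaturation and final reduction steps, had every NICD_mut library below every NICD_wt library in CPM but did not pass, at log2 fold changes of -0.24, -0.24 and -0.23. Dhcr7 passed at -0.29 without NICD_wt 1 (edgeR, BH-adjusted p = 0.0465) and at -0.33 without NICD_mut 1 and NICD_wt 1. Summed over the 18 enzymes of the mevalonate arm and the sterol steps, the level was 644 and 638 TPM in NICD_mut against 822, 842 and 889 TPM in NICD_wt.

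Promoter sequences show what genes that fell, rose or did not pass have in common before their starts. Windows of 300 bases, 250 before to 50 after each RefSeq gene start (GRCm38.p6), were found for 24 of the 30 genes, 32 windows in all. Motifs were searched as letters on both strands: TCACNNCAC, a sterol regulatory element pattern, CCAAT, the NF-Y box, GGGCGG, the Sp1 box, and CACGTG, an E-box. CCAAT was in 65.6% of the windows of the set and in 37.4% of all 32851 RefSeq windows. GGGCGG was in 75.0% of the windows of the set against 35.7% of all, CACGTG in 18.8% against 7.15%, and TCACNNCAC in 12.5% against 3.77%. All RefSeq windows were taken without regard to expression in kidney, and shares among expressed genes alone were not computed. By gene, CCAAT was present for 10 of the 13 that fell and had a window and for 10 of the 11 others. GGGCGG was present for 12 of 13 and 8 of 11. CACGTG was present for 3 of 13 and 2 of 11, and TCACNNCAC for 3 of 13 and 1 of 11. The 4 genes with TCACNNCAC were Hmgcs1, Msmo1, Hsd17b7 and Dhcr7. A match is a run of letters and does not show binding. The windows of Hmgcs1 (chr13:119690101-119690400, plus strand), Msmo1 (chr8:64733529-64733828, minus strand) and Idi1 (chr13:8885356-8885655, plus strand) are shown for genes that fell, Lss (chr10:76531355-76531654, plus strand) for a gene that did not pass, and Mylip (chr13:45389492-45389791, plus strand) for a gene that rose. Sequences run 5′ to 3′ on the gene's strand, with matches to TCACNNCAC and CCAAT on either strand in capitals; in Msmo1 1 match to each pattern overlaps the other.
Hmgcs1: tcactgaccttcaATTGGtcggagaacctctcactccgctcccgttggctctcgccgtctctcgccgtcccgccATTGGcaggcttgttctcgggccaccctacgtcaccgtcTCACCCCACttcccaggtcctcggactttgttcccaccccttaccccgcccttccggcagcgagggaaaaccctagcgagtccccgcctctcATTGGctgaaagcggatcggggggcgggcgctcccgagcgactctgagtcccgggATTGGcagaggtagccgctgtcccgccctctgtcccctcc
Msmo1: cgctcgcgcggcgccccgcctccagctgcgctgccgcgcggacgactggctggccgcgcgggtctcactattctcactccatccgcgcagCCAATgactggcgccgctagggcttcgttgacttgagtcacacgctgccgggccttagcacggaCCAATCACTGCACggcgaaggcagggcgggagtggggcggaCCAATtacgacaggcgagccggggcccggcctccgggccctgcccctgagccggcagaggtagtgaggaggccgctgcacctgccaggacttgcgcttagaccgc
Idi1: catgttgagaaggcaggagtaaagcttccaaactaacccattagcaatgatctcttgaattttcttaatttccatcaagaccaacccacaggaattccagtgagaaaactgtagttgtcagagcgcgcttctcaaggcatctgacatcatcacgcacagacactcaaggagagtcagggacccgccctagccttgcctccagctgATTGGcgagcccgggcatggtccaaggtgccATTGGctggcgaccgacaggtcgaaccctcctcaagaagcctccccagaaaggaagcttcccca
Lss: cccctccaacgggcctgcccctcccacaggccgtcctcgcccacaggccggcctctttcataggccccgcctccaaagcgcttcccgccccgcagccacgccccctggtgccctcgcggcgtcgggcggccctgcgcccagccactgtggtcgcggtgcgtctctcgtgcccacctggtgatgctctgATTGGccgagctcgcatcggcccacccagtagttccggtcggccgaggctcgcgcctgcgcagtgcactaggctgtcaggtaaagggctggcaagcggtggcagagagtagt
Mylip: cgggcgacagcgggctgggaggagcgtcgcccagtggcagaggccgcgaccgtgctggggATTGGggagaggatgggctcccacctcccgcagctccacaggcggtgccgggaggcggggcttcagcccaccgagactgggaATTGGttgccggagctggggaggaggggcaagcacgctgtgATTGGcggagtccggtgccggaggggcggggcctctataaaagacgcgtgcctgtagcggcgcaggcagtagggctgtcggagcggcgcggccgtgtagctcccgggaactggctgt
In Hmgcs1 the capital run TCACCCCAC starts 137 bases before the gene start. Idi1, which fell more, had 2 CCAAT boxes on the minus strand and no match to TCACNNCAC in the window. Mylip, which rose, held 3 CCAAT boxes and Lss 1.

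**Figure D3:**
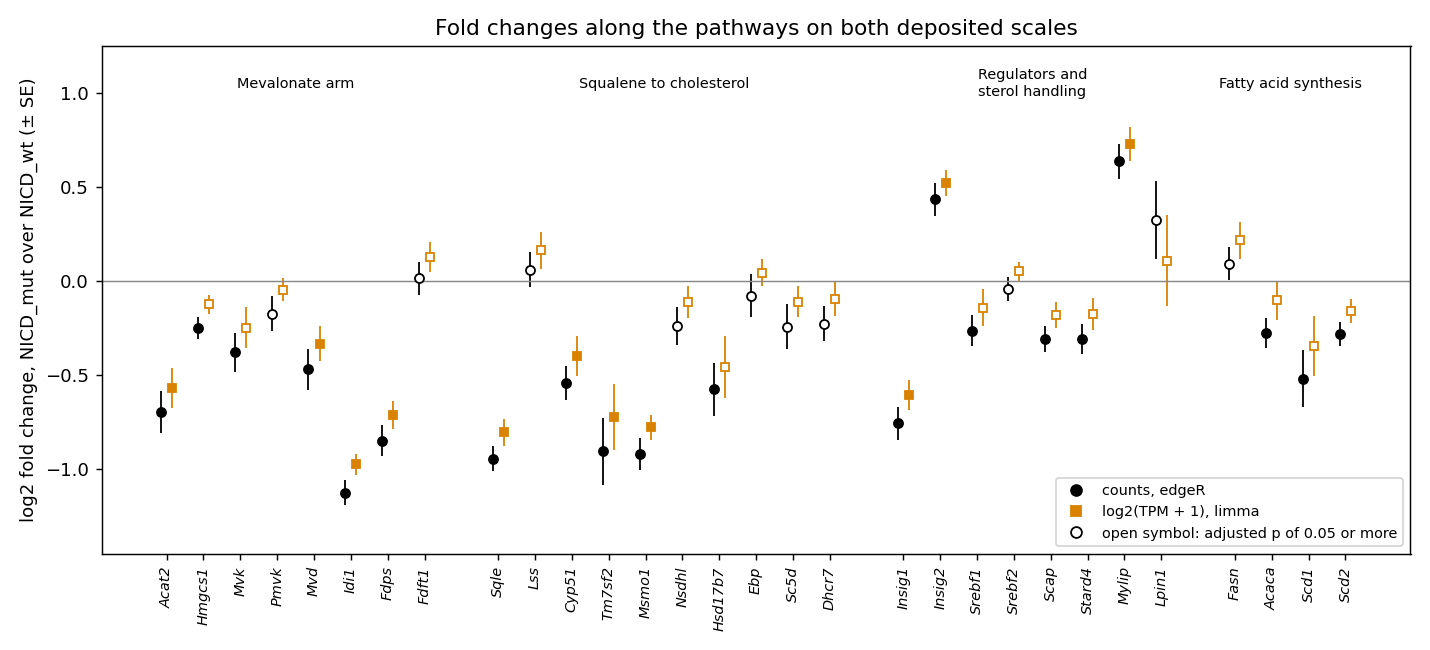
log2 fold change of NICD_mut over NICD_wt with its SE for each gene in pathway order, from counts by edgeR (circles) and from log2(TPM + 1) by limma (squares), with filled symbols for adjusted p under 0.05. The TPM values lie above the count values for most genes, and Idi1, Fdps, Sqle, Msmo1 and Insig1 are low on both.

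Among regulators and sterol handling genes 4 of 8 fell, 2 rose and 2 missed the threshold. Of all tested genes 24.8% fell and 23% rose, so the share that rose was near that of all genes. The median log2 fold change of these 8 genes was -0.15. The INSIG genes moved in opposite directions. Insig1, itself a target of SREBP and a brake on it, had 27.9 and 26.6 CPM in NICD_mut against 44.4, 44.9 and 48.9 CPM in NICD_wt. Its log2 fold change was -0.76 (SE 0.09; edgeR, BH-adjusted p = 0.000158). Insig2, which acts on the same step and is not driven by SREBP in the same way, had 34.5 and 35.5 CPM in NICD_mut against 26.7, 25.1 and 26.0 CPM in NICD_wt. Its log2 fold change was 0.43 (SE 0.09; edgeR, BH-adjusted p = 0.00317). In TPM, which allows levels of different genes to be set side by side, Insig2 averaged 24.4 ± 0.141 in NICD_mut (SD, n = 2) and 16.7 ± 0.252 in NICD_wt (SD, n = 3), and Insig1 19.1 ± 1.20 in NICD_mut and 29.7 ± 1.60 in NICD_wt. Insig2 was thus above Insig1 in both NICD_mut libraries and below it in all 3 NICD_wt libraries.

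Of the transcripts that encode the SREBP factors, Srebf1 fell and Srebf2 did not pass. Srebf2, which encodes the factor that drives the cholesterol genes, had 214 and 234 CPM in NICD_mut against 229, 237 and 226 CPM in NICD_wt. Its log2 fold change was -0.04, with a 95% interval of -0.19 to 0.10, and on TPM it was 0.05. Srebf1, which encodes the factor known for fatty acid genes, had 87.4 and 74.3 CPM in NICD_mut against 92.4, 101 and 98.0 CPM in NICD_wt (log2 fold change -0.27, SE 0.08). It did not pass without NICD_mut 2 (-0.16; edgeR, BH-adjusted p = 0.0795), without NICD_wt 2 or without NICD_wt 3 (edgeR, BH-adjusted p = 0.0868 and 0.082). Scap, the escort of both factors, changed by -0.31 (SE 0.07), at 86.8 and 89.5 CPM in NICD_mut against 104, 117 and 106 CPM in NICD_wt. Transcript counts do not measure SREBP cleavage or protein.

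Mylip, a ubiquitin ligase that limits lipoprotein uptake, showed the highest log2 fold change of the set in the count fit. It had 45.5 and 44.2 CPM in NICD_mut against 29.6, 30.6 and 26.2 CPM in NICD_wt (log2 fold change 0.64, SE 0.09; edgeR, BH-adjusted p = 0.000578). Stard4, a carrier that moves sterol between membranes, changed by -0.31 (SE 0.08) and did not pass without NICD_wt 2 or without NICD_wt 3 (edgeR, BH-adjusted p = 0.0535 and 0.0606). Lpin1, a phosphatidate phosphatase, had 11.4 and 10.1 CPM in NICD_mut against 6.54, 8.75 and 10.4 CPM in NICD_wt, with overlapping groups, and did not pass at 0.33 (SE 0.21).

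Of the 4 fatty acid synthesis genes 3 fell and 1 did not pass on counts, against 24.8% of all tested genes that fell. The median log2 fold change of the 4 genes was -0.28. On TPM 0 of them passed by limma on log2(TPM + 1), 1 had an unadjusted p under 0.05, and their log2 fold changes ran from -0.35 for Scd1 to 0.22 for Fasn. DESeq2 and limma-voom on counts called the same number as edgeR, 3. Scd2, a stearoyl-CoA desaturase, had 810 and 867 CPM in NICD_mut against 962, 1096 and 1004 CPM in NICD_wt (log2 fold change -0.28, SE 0.06). It had the highest level of the set, 271 ± 3.83 TPM in NICD_mut (SD, n = 2) and 303 ± 19.4 TPM in NICD_wt (SD, n = 3), while its relative Scd1 had 5.27 ± 1.23 TPM in NICD_mut and 6.91 ± 0.570 TPM in NICD_wt. Scd1 changed by -0.52 (SE 0.15) on counts; the transcripts of Scd1 and Scd2 match at 95.5% over 623 bases, so reads could be shared. Acaca, acetyl-CoA carboxylase, which makes malonyl-CoA, changed by -0.28 (SE 0.08). The near copy Gm5182, not analysed here, matches the Acaca transcript at 99.2% over 6118 bases, so the Acaca count is uncertain as a single gene. Neither Scd1 nor Acaca passed without NICD_mut 2 (-0.34 and -0.21), without NICD_wt 2 (-0.45 and -0.23) or without NICD_wt 3 (-0.53 and -0.30). Fasn, fatty acid synthase, had 231 and 218 CPM in NICD_mut against 202, 237 and 193 CPM in NICD_wt, so the groups overlapped, with a 95% interval of -0.11 to 0.30 for its log2 fold change of 0.09.

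Other genes of sterol and lipid metabolism were read from 5 further lists. In the order given here, genes called in either direction numbered 4 of 10, 11 of 20, 6 of 11, 5 of 12 and 6 of 12, near the 47.7% of all tested genes, of which 24.8% fell and 23% rose. Of 10 other sterol synthesis genes 3 fell, 1 rose and 6 missed the threshold. Their median log2 fold change was -0.24. Lbr, a sterol reductase of the nuclear envelope, had a log2 fold change of -0.58 (SE 0.06), Tmem97, a sterol-responsive membrane protein, of -1.18 (SE 0.15) and Erg28 of -0.42 (SE 0.08). Cyb5r3, a cytochrome reductase, was the 1 gene that rose on counts, by 0.41 (SE 0.07), while 3 rose on TPM by limma. Acly, which supplies cytosolic acetyl-CoA, did not pass, at -0.06, and was at 0.06 on TPM.

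Of 20 tested genes of fatty acid elongation, desaturation, activation and glyceride synthesis 5 fell, 6 rose and 9 missed the threshold. Their median log2 fold change was -0.01. On TPM the median was 0.08, over genes that included Thrsp, not tested on counts, and left out Pnpla3. Elovl6, the elongase of long saturated chains, had a log2 fold change of -1.18 (SE 0.07), while Mid1ip1, an activator of acetyl-CoA carboxylase, rose by 1.41 (SE 0.07). The acyl-CoA synthetases Acsl3, Acsl4 and Acsl5 changed by -0.86 (SE 0.11), -0.43 (SE 0.08) and -0.48 (SE 0.07), and Fads1, a desaturase, by -0.30 (SE 0.06). The other genes that rose were Pnpla3, a lipase of lipid droplets, at 1.12 (SE 0.33), Dgat2, a triglyceride synthase, at 0.59 (SE 0.14), the elongases Elovl1 and Elovl5 at 0.43 (SE 0.08) and 0.19 (SE 0.06), and Gpam, which starts glyceride synthesis, at 0.24 (SE 0.07). Acsl4, Fads1 and these 5 were named after their values were seen. Pnpla3 did not pass without NICD_mut 1, NICD_wt 1 or NICD_wt 3, nor Gpam without NICD_mut 1, NICD_wt 2 or NICD_wt 3. Elovl5 did not pass without NICD_mut 1 or with any 1 NICD_wt library left out. Pnpla3, Gpam, Elovl5 and Dgat2 did not pass without NICD_mut 1 and NICD_wt 1 together. Of 11 genes of SREBP processing and its cofactors 4 fell, 2 rose and 5 missed the threshold, at a median of -0.08, or 0.04 on TPM. Chosen with the values in view, the genes that fell were Nfyb and Nfyc, subunits of NF-Y, at -0.47 and -0.32, Erlin1 at -0.35, and the protease gene Mbtps2 at -0.27. Erlin2, the partner of Erlin1, rose by 0.42 (SE 0.06) and Rnf145 by 0.20 (SE 0.06). Mbtps2 did not pass without NICD_mut 1, NICD_wt 1 or NICD_wt 2, nor without NICD_mut 1 and NICD_wt 1 together. Rnf145 did not pass without NICD_wt 1 or NICD_wt 3. On TPM neither Erlin1 nor Mbtps2 passed (limma on log2(TPM + 1), BH-adjusted p = 0.0838 and 0.133).

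For cholesterol uptake and efflux, too, single genes moved in both directions. Of 12 uptake and transport genes 4 rose, 1 fell and 7 missed the threshold, at a median of 0.12. On TPM by limma 7 rose and 1 fell, where 28.9% of all tested genes rose and 18.7% fell. The lipoprotein receptor Lrp8 changed by -1.83 (SE 0.20) on the log2 scale. Lrp1, an endocytic receptor, rose by 1.69 (SE 0.14), Apoe, the carrier apolipoprotein, by 0.95 (SE 0.07), the lysosomal lipase Lipa by 0.88 (SE 0.09) and Npc2 by 0.20 (SE 0.06). Of 12 tested genes of LXR, efflux, esterification and oxysterols 4 rose, 2 fell and 6 missed the threshold, at a median of 0.24. Abca1, which exports cholesterol, had 87.8 and 81.3 CPM in NICD_mut against 25.6, 31.1 and 23.8 CPM in NICD_wt (log2 fold change 1.65, SE 0.11; edgeR, BH-adjusted p = 1.30e-05). Abcg1, another exporter, rose by 1.24 (SE 0.19), Lpcat3, which remodels phospholipids, by 0.33 (SE 0.07) and the LXR gene Nr1h2 by 0.25 (SE 0.07). Abcg5 changed by -1.37 (SE 0.39) and Cyp7b1, an oxysterol hydroxylase, by -0.50 (SE 0.12). Npc2 did not pass with any 1 NICD_wt library left out, Nr1h2 without NICD_wt 1 or NICD_wt 3, and Abcg5 without NICD_mut 1 or NICD_wt 2. Neither Nr1h2 nor Abcg5 passed without NICD_mut 1 and NICD_wt 1 together.

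**Figure D4:**
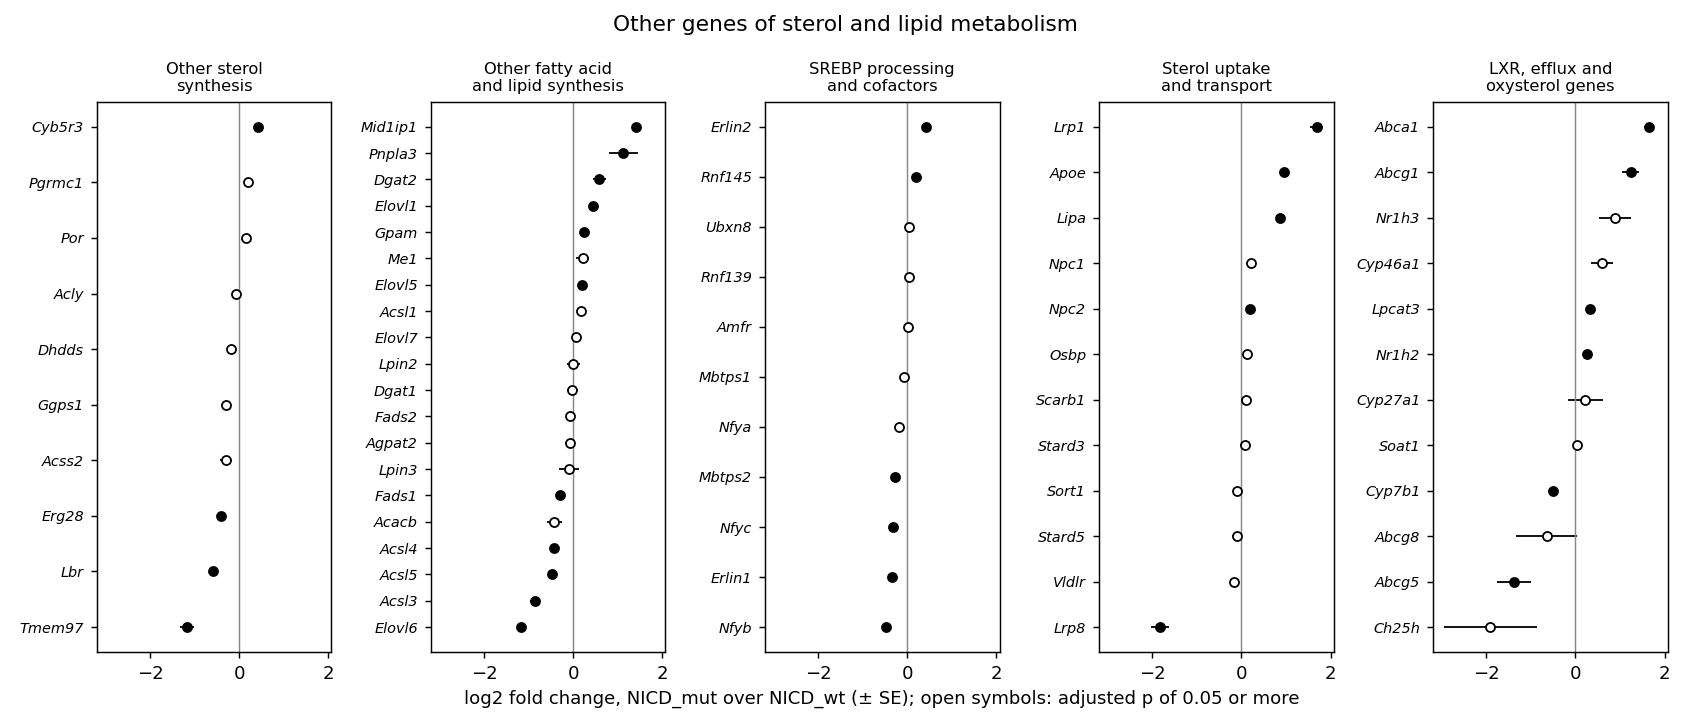
log2 fold change of NICD_mut over NICD_wt with its SE from the count fit for the other genes of sterol and lipid metabolism, 1 panel per list, with open symbols for adjusted p of 0.05 or more. Tmem97, Elovl6, Lbr and Lrp8 lie left of 0 and Mid1ip1, Lrp1, Apoe, Abca1 and Abcg1 right of it.

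Markers of several cell types and of proliferation differed between the same groups, and their part in these results was not tested. The marker counts below stand beside 24.8% of all tested genes that fell and 23% that rose. Of 8 proliferation markers 7 fell and 1 did not pass, with a summed level of 731.5 and 699 TPM in NICD_mut against 1067 to 1119 TPM in NICD_wt. Of 7 nephron progenitor markers 6 fell, with a summed level of 55.4 and 24.6 TPM in NICD_mut against 437.5 to 472 TPM in NICD_wt. Of 12 proximal tubule markers 8 rose and 2 fell, at 1321 and 1373 TPM in NICD_mut against 501 to 616 TPM in NICD_wt. Of 7 macrophage markers, from a cell type known to express Apoe, Abca1 and Lipa, 6 rose, at 212 and 190 TPM in NICD_mut against 77.5 to 88.0 TPM in NICD_wt. The 7 loop of Henle and distal tubule markers each fell, at 6.05 and 5.64 TPM in NICD_mut against 220.5 to 255 TPM in NICD_wt. Steroid-producing adrenal cells use cholesterol at high rates, and their 8 markers summed to 5.77 and 3.47 TPM in NICD_mut against 4.94 to 6.44 TPM in NICD_wt. Of these, 3 were tested; 0 passed by edgeR, DESeq2, limma-voom or limma on log2(TPM + 1), and 1 was lower at an unadjusted p under 0.05 by edgeR. The adrenal enzyme genes Cyp17a1 and Cyp21a1 had no count in any library. Schwann cell markers, of which 4 of 7 rose and 2 fell, summed to 55.2 and 31.5 TPM in NICD_mut against 75.8 to 85.5 TPM in NICD_wt, most of it from Mal, which kidney tubules also express. Of 8 fat cell markers 1 of 3 tested rose, and Adipoq, which defines fat cells, was listed at 0 TPM in both NICD_mut libraries and reached 0.09 TPM in NICD_wt 3 alone. Of 6 tested liver markers 2 rose, Fgb and Serpina1a, while Alb, Afp, Apoa1 and Ttr did not pass. The liver markers summed to 152 and 150 TPM in NICD_mut against 53.0 to 88.8 TPM in NICD_wt. Fgb alone had 60.0 and 68.9 TPM in NICD_mut against 2.27 to 3.20 TPM in NICD_wt. Of 6 tested red cell markers 4 rose.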

How the data were processed

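Gene expression was measured by bulk RNA sequencing of embryonic kidneys. The authors deposited estimated counts per gene symbol, as whole numbers, and TPM values for the same 5 libraries, whose columns were matched by name. The submitters' processing notes name RSEM, Bowtie2 and the build mm10 as what the authors used. Tool versions, the annotation and the strand setting were not stated there. RSEM shares reads among near copies by estimation.

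Counts were scaled with TMM, filtered with filterByExpr (minimum count 10, minimum total 15) and tested by quasi-likelihood with edgeR 4.0.16 under R 4.3.3 (robust fit, no covariates). P-values were adjusted by Benjamini-Hochberg over 15885 genes, with a threshold of 0.05. SE values were taken from the fold change and F statistic. TPM values were tested with limma 3.58.1 on log2(TPM + 1), for genes with at least 1 TPM in 2 libraries. The tests were run on simulated counts with the spread of the NICD_wt libraries alone and few changed genes. The spread of the NICD_mut libraries and the many genes called here lie outside that setting. Near copies were found with blastn 2.17.0 (at least 95% identity over 200 bases) and overlaps in GENCODE annotation of mm10. Figures used matplotlib 3.10.9. Libraries of a group differed by more than sampling noise, and the NICD_mut pair differed most. The chi-square per degree of freedom was 35.8 for the NICD_mut pair and 4.48 to 7 for the NICD_wt pairs.

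The genes of the set, the lists, the promoter motifs and the alternatives were chosen with earlier results of these data known. All genes of the set are accounted for, and some genes of the other lists are not reported here and were left out of their counts; from each other list up to 4 genes of lowest adjusted p (2 if no gene passed) were named, with any that alone moved against its list, and in lists with few calls each called gene. Alternative settings were size factors from DESeq2, scaling by library size, fits with no filter, a stricter filter (50 counts in 2 libraries), the DESeq2 1.42.0 Wald test, limma-voom, TPM with pseudocounts of 1 and 0.1 and with no filter, a replicate block, and libraries left out.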

Additional observations from a re-analysis of the deposited data

How the results depend on the processing

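The median of the set was below 0 in each alternative run, and 2 genes of the set rose in each. The number that fell was 18 with DESeq2 size factors, library size alone, either filter, the DESeq2 Wald test and limma-voom. Of all tested genes 19.5% (no filter) to 27.1% (stricter filter) fell in those fits. The number of the set that fell was 9 by limma on log2(TPM + 1), on log2(TPM + 0.1) and with no TPM filter. There the medians of the set were -0.15, -0.15 and -0.15, and 18.7%, 18.7% and 12.6% of all tested genes fell. Over all genes 2785 fell and 4307 rose by limma on log2(TPM + 1), against 3934 and 3649 by edgeR on counts, and without the TPM filter 2606 fell. The cause of the smaller counts on TPM was not tested. Without both libraries with muscle transcripts the median was -0.35. Over fits that left out 1 library, genes of the set that fell numbered 13 to 19 and those that rose 2, the median was -0.32 to -0.24, and over all genes 2797 to 3843 rose and 3101 to 4207 fell. Fits that leave 1 NICD_mut library assume that it varies like NICD_wt. Replicate numbers are shared by 2 pairs of libraries only and the labels tie no pair to an animal or litter. Deviations from the group mean correlated across genes at 0.34 for the libraries numbered 1, which hold the muscle transcripts. For those numbered 2 the value was 0.149, below the 0.234 of the differently numbered NICD_mut 2 and NICD_wt 3. With 2 NICD_mut libraries the deviations of 1 mirror those of the other, so these values are not separate checks of pairing. With replicate number as a block 11 of the set fell, against 18.1% of all genes. Lpin2, not called in the main comparison at -0.00, rose by 0.22 without NICD_mut 1 and by 0.24 without NICD_mut 1 and NICD_wt 1, and fell by 0.27 without NICD_mut 2.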
